A study of Mus musculus with 4 samples.

Results

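Immature neutrophils were examined in the spleens of lymphoma-bearing mice after antibody treatment. They were taken as the cell barcodes with 300 to 3000 detected genes in which the raw UMIs of Camp, Ngp and Ltf summed to 10 or more. This gave 63 members of 1770 kept barcodes. UMIs (unique molecular identifiers) tag single RNA molecules, and in Drop-seq a cell shares a droplet with a bead, whose barcode then stands for that cell. All mice were of the BALB/c strain and carried BCL1, a transplanted mouse B-cell lymphoma, of which 10000 cells were given on day 0. Splenocytes, released with Liberase, were collected on day 13. The 4 libraries came from mice given an isotype control antibody, anti-CD20 mAb on day 4, anti-CD27 mAb on days 5 to 8, or anti-CD20 and anti-CD27 together. The days are those of the sample labels, and the single-cell part of the methods gives earlier ones. Anti-CD20 binds a surface protein of B cells, and anti-CD27 binds a costimulatory receptor of T and natural killer cells. Every treatment had a single library (1, unreplicated), and how many mice a library came from was not given in the sources used here. No test between treatments was therefore made. All intervals below are at 95% and cover counting error only, neither variation between cells nor between mice.

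Neutrophils are made in the bone marrow and, in mice, also in the spleen. They fill their granules in a fixed order as they mature. Primary granule genes (Elane, Mpo, Prtn3) are used in promyelocytes, secondary granule genes (Camp, Ngp, Ltf, Lcn2) in myelocytes and metamyelocytes, and genes of migration and inflammation (Cxcr2, Il1b) in the mature cell. Cell division ends at about the myelocyte stage, and the factor encoded by Cebpe drives the secondary granule genes.

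The 3 genes behind the rule lay within 1.20 Mb of chromosome 9 in GRCm38, the assembly also called mm10. Camp encodes the antimicrobial peptide cathelicidin (chr9:109847379-109849617, minus strand). Ngp, for neutrophilic granule protein, lay at chr9:110419747-110423012 on the plus strand. Ltf, for the iron-binding lactoferrin, lay at chr9:111019271-111042767 on the plus strand. The other markers were Lcn2, for the siderophore-binding lipocalin 2 (chr2:32384633-32388252, minus strand), Fcnb, for the lectin ficolin B (chr2:28076378-28084885, minus strand), and Cebpe (chr14:54710360-54712174, minus strand). The promoters of 4 of these genes are shown, namely the 3 rule genes, which chose the members, and Fcnb, whose level differed between members as described below. Each sequence is a RefSeq promoter window of build GRCm38.p6, limited to the bases ahead of the first annotated base of the gene and written 5′ to 3′ on the strand of the gene. Capitals mark matches to TTNNGNAA or its reverse complement TTNCNNAA, the core that C/EBP factors bind. The stretches span chr9:109849618-109849706 for Camp, chr9:110419558-110419746 for Ngp, chr9:111019042-111019270 for Ltf and chr2:28084886-28085128 for Fcnb.
Camp: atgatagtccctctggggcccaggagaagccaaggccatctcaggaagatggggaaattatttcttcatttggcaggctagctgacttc
Ngp: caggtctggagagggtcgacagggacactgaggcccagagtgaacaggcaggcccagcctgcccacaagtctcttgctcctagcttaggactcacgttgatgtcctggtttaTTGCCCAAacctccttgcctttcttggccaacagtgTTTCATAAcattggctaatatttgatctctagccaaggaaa
Ltf: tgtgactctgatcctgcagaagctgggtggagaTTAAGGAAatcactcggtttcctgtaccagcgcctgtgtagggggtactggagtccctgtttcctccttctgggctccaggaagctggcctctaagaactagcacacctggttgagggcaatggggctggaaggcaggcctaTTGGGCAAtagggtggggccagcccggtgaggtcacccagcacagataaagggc
Fcnb: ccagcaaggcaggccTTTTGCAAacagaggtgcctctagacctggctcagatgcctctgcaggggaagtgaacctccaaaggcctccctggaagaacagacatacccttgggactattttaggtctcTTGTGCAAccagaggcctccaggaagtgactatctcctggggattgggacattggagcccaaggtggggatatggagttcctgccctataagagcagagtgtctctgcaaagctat

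The Ngp, Ltf and Fcnb stretches each held 2 matches and the Camp stretch held 0. In the whole 300-base windows there were 3 matches for Ngp, 2 for Ltf, 2 for Fcnb, 1 for Lcn2 and 0 for Camp. Of 32851 windows of all genes, 13365 (40.7%) held at least 1 match. A second motif, GAGGAAG, which the granulocyte factor PU.1 can bind, was searched on both strands and stood in 4477 windows (13.6%). It stood in the window of Lcn2 and in those of 0 of the 3 rule genes. Among secondary granule genes other than Camp, Ngp and Ltf, 26 windows of 22 genes were found for a list of 29, and 15 (57.7%) held the C/EBP core and 11 (42.3%) the PU.1 motif. These matches describe letters and were not measured as binding.

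Several features of the libraries bear on every value below. The kept barcodes held 440710 to 939565 UMIs per library, and the members held 11127 UMIs in 5 barcodes of the isotype control, 7578 in 3 of anti-CD20, 95880 in 27 of anti-CD27 and 108807 in 28 of the combination. Where 4 values stand in a row below, they follow this order of libraries. The 2 libraries without anti-CD27 thus rest on 8 barcodes. Some beads carry barcodes that differ by 1 base, or that lack 1 base and end in an unread base. These can split 1 cell over several barcodes. Leaving out the shallower of such barcodes took the members to 59, with 4, 3, 24 and 28 per library. Of the 8 barcodes found in more than 1 library, 0 belonged to members, and 19 members had a barcode that ended in an unread base. No doublet caller was run. Without the members that held 5 or more UMIs of B cell, T cell or erythroid markers, haemoglobin genes aside, 56 remained.

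The threshold fell in a gap. The 4 lowest members held 10, 16, 17 and 26 UMIs of the rule genes and the 4 highest other barcodes 7, 6, 5 and 4, while 59 members held 45 or more, the median was 308 and the highest member reached 1648. Of the 1707 other barcodes, 1312 held 0. These values chose the members and are given as a description only.

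**Figure D1:**
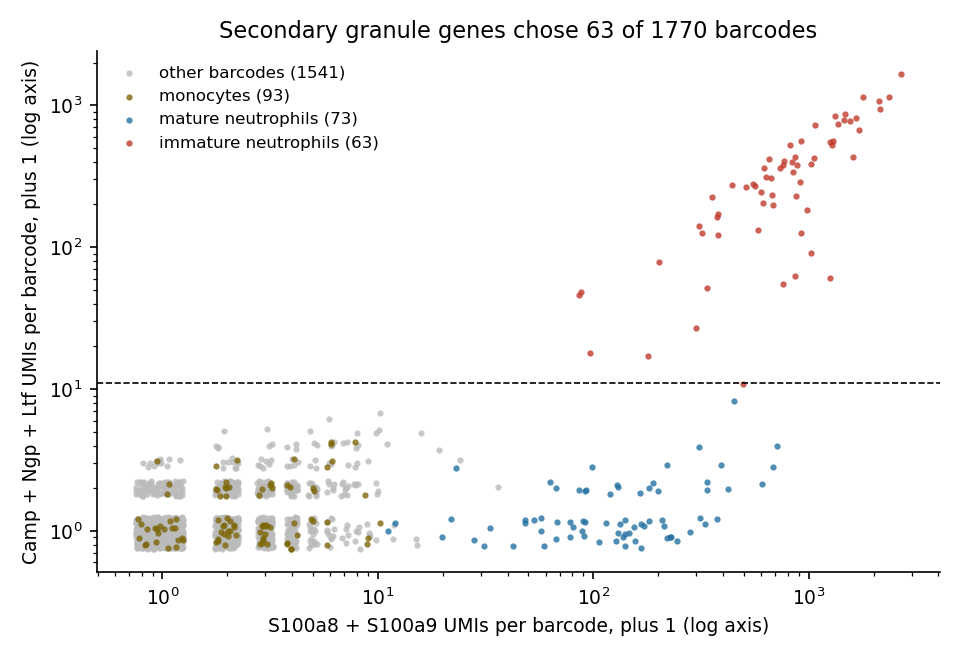
UMIs of Camp, Ngp and Ltf against those of S100a8 and S100a9 in each of the 1770 barcodes, both plus 1 on log axes and jittered, coloured by class, with a dashed line at the minimum of 10. The members lie between 10 and 1648 UMIs of the rule genes, and the highest other barcode holds 7.

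Camp, Ngp and Ltf made up a large share of the RNA of the members in every library. Their median share per member was 12.3% of UMIs in the isotype control (range 11.1 to 14.4), 13.0% after anti-CD20 (11.4 to 15.7), 11.6% after anti-CD27 (0.713 to 15.5) and 12% after the combination (2.39 to 15.6). The 4 medians were close, and low shares occurred in the anti-CD27 and combination libraries. The level of a gene is its UMIs scaled to a fixed total of the UMIs of the members (CPM), and Camp stood at 52395, 70731, 45108 and 49804 CPM. For Ngp the levels were 56529, 54896, 51116 and 46495 CPM, and for Ltf 11504, 8841, 12401 and 12545 CPM. Both other myeloid classes held little of them, as the limit on rule genes in their definition requires. Camp was measured at 147 CPM in mature neutrophils and 69.6 CPM in monocytes over all 4 libraries.

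The 3 markers outside the rule were also high. Lcn2 was measured at 13031, 15571, 14831 and 12159 CPM, and the 4 values were close. Fcnb stood at 1168, 4223, 1314 and 772 CPM. The anti-CD20 value rests on 32 UMIs in 3 barcodes, and its interval of 2888 to 5961 CPM lay above those of the other 3 libraries. Cebpe was measured at 719 CPM (310 to 1417), 660 CPM (214 to 1540), 741 CPM (578 to 934) and 607 CPM (469 to 772), so that the 4 intervals overlapped. In 73 mature neutrophils Fcnb had 0 UMIs and Cebpe 1 UMI, where the median barcode held 956 UMIs against 2909 in the members. Summed over the members of each library, these markers matched the label. Single members differed, as described below. Fcnb had 0 UMIs in 13 members that were rich in Retnlg and also in a number of other members. Cebpe had 0 UMIs in some members of every library. Lcn2 had 0 and 2 UMIs in 2 members rich in primary granule genes.

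The members were next set against mature neutrophils of the same libraries, to describe how the 2 neutrophil stages differed. Mature neutrophils were the barcodes with 10 or more UMIs of S100a8 and S100a9, at least 1 UMI of Csf3r, Cxcr2 or Il1b and fewer than 10 UMIs of the rule genes. They numbered 5, 5, 22 and 41 in the 4 libraries. Ratios were formed only where both stages had 10 or more barcodes, that is within the anti-CD27 and within the combination library. A gene was called when it differed at least 2-fold, on the scale log2(CPM + 10), in the same direction in both. Of 3238 genes with 10 or more UMIs, 588 (18.2%) were called higher and 500 (15.4%) lower in the members, with a median log2 ratio of 0.27. Many of these genes had no UMI in the mature cells, which held fewer UMIs. When every count of 0 was set to a floor of 3 counts, 169 were higher, 498 lower and the median was -0.06. With TMM factors, which rescale the classes, 813 were higher and 309 lower, and with totals that left out Camp, Ngp, Ltf, S100a8 and S100a9, 768 and 366. Both counts are given for each gene group. Since the stages were defined by neutrophil genes, the differences are a description and carry no test. One mature barcode of the anti-CD27 library held 59.5% erythroid marker UMIs, and its part in the ratios was not tested.

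Secondary granule genes outside the rule were mostly higher in the members. Of 22 with enough UMIs, 14 were called higher and 1 lower, with a median log2 ratio of 2.18. At the floor the counts were 13 and 1 and the median 2.09. The largest difference was in Chi3l3, which encodes the chitinase-like lectin Ym1. In the members it stood at 1398 and 1673 CPM in this pair of libraries and had 0 UMIs in mature neutrophils, so that it was at least 11.8-fold and 25.6-fold higher, with the floor taken per library. On the same floor Fcnb was at least 11.1-fold and 11.8-fold higher. Lyz2, for lysozyme, was higher by 2.44 on the log2 scale, at 17991 and 19089 CPM in the members against 3225 and 3598 CPM in mature cells. Anxa1, for annexin A1, was higher by 2.52, Ly6g, the common surface marker of mouse neutrophils, by 2.01 and Cd177, a neutrophil adhesion protein, by 2.56. The member called lower was Retnlg, which encodes a resistin-like protein and stood at -1.81. Mmp8, for neutrophil collagenase, stood at -0.43 and was not called. Ly6g, Retnlg and Mmp8, and below Csf3r and Cxcr2, were chosen after their values were seen.

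**Figure D2:**
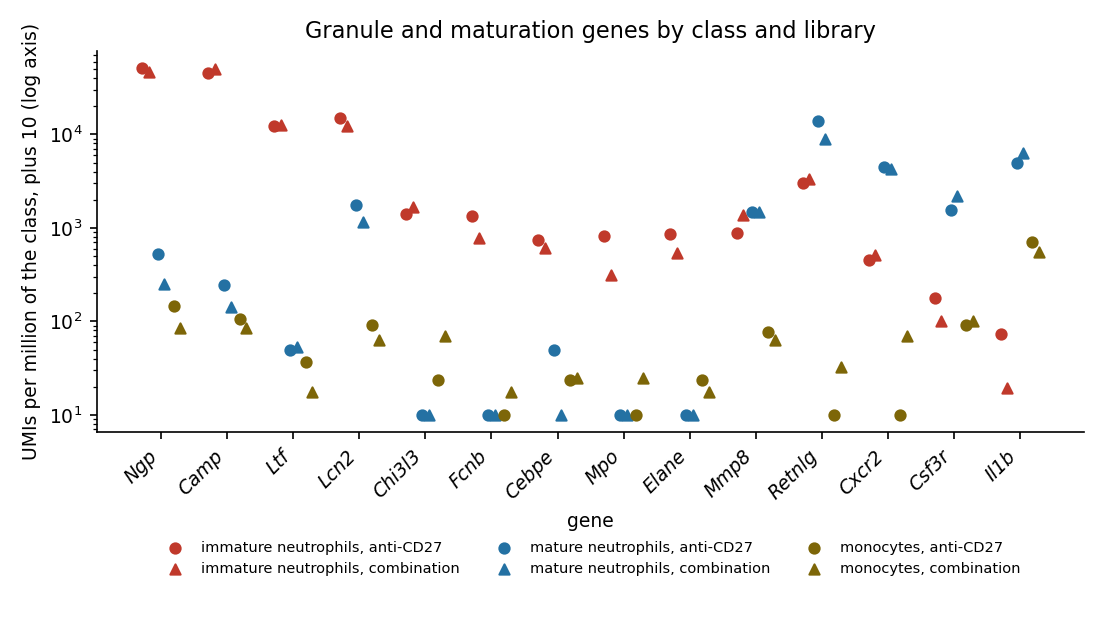
Level in CPM plus 10, on a log axis, of granule genes, Cebpe and genes of late maturation in immature neutrophils, mature neutrophils and monocytes of the anti-CD27 (circles) and combination (triangles) libraries. Fcnb and Chi3l3 lie at 0 CPM in mature neutrophils, while Il1b lies at 62.6 and 9.19 CPM in immature and 4916 and 6258 CPM in mature cells.

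Primary granule genes came from few members. Of 9 with enough UMIs, 7 were called higher and 1 lower, with a median of 3.64. At the floor 5 were higher and the median was 1.32. Elane, for neutrophil elastase, had 139 UMIs in 5 members, and 128 of them lay in 2 members. Mpo, for myeloperoxidase, had 111 UMIs in 7 members, of which 1 held 73. Both genes had 0 UMIs in the members of the isotype control and anti-CD20 libraries. Without the 2 members rich in primary granule genes the median was 1.93. Srgn, which encodes the granule proteoglycan serglycin, was the gene called lower. It stood at 720 and 175 CPM in the members and at 3736 and 4252 CPM in mature cells.

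Genes of tertiary granules and late maturation were lower in the members. Of 44 with enough UMIs, 0 were higher and 33 lower, with a median of -2.32 (-2.26 at the floor). Il1b, for the cytokine interleukin-1β, stood at 62.6 and 9.19 CPM in the members against 4916 and 6258 CPM. Csf3r, the receptor of the growth factor G-CSF, differed by -3.77 and Cxcr2, a chemokine receptor for leaving the marrow, by -3.18. These 3 genes helped to define the mature class, so that their direction follows from its definition. Genes outside the definition lay the same way. Msrb1, for a methionine sulfoxide reductase, stood at 1001 and 735 CPM against 4405 and 4012 CPM, and Junb, for a factor of early responses, at 52.1 and 55.1 CPM against 2006 and 1897 CPM. Amica1, for an adhesion molecule of leukocytes, had 0 UMIs in the 63 members and was at least 22.6-fold and 35.6-fold lower than in mature cells of the 2 libraries.

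The trafficking receptors, which share 8 genes with the late maturation list, had 3 higher and 14 lower genes of 25, with a median of -1.62. Those called higher were Cd177, Ceacam1, an adhesion molecule, and Ltb4r1, the receptor of leukotriene B4. Among 4 Fc receptor genes 0 were higher and 2 lower, with a median of -1.32. Fcgr4, for the activating receptor FcγRIV, stood at 104 and 82.7 CPM in the members and at 747 and 698 CPM in mature cells. Fcgr3, for FcγRIII, stood at 219 and 303 CPM against 1259 and 741 CPM. NADPH oxidase genes, which produce the oxidative burst, differed less, with 1 of 8 higher, 0 lower and a median of 0.17. The gene called higher was Cybb, for the catalytic subunit gp91phox, at 2816 and 2537 CPM in the members against 118 and 414 CPM in mature cells.

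Among 11 granulocyte transcription factor genes 2 were higher and 3 lower, with a median of -0.74 (1 and 3 at the floor). The higher genes were Cebpe and Myb, a factor of early progenitors, and the lower ones Spi1, Mxd1 and Cebpb. Cebpe stood at 741 CPM after anti-CD27, against 1 UMI in mature cells, and after the combination it was at least 9.27-fold higher than the floor. The log2 ratio of Spi1, which encodes PU.1, was -1.35, and that of Mxd1, for an antagonist of Myc, was -2.11. S100a8 and S100a9, the alarmin subunits that mark all neutrophils, were used to define the mature class and differed by 0.74 and 0.49. They were not called. Of the 4 alarmin genes tested, 1, S100a6, was lower.

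Genes of cell division were higher in the members, but with low counts in mature cells. Of 37 genes of mitosis and G2/M, 24 were called higher and 0 lower, with a median of 2.64, and at the floor 7 were higher with a median of 0.39. Of 22 genes of DNA replication and S phase, 10 were higher and 0 lower, with a median of 2.27, and at the floor 1 was higher with a median of 0.14. Mki67, for the proliferation antigen Ki-67, stood at 657 and 414 CPM in the members against 118 and 174 CPM. Top2a, for topoisomerase IIα, stood at 647 and 404 CPM against 39.3 and 43.6 CPM, of 1 and 2 UMIs. The median of both lists also turned negative when barcodes over 3000 genes were kept. That setting added 8 barcodes with 150231 UMIs to a mature class of 81407 UMIs.

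Respiratory chain genes had 15 of 36 called higher and 0 lower, with a median of 1.28 (9 higher and 1.0 at the floor). Genes of the secretory pathway, which loads the granules, had 6 of 27 higher and 0 lower, with a median of 1.07 (0 higher and 0.38 at the floor). Both medians turned negative without the upper limit on genes, at -0.78 and -1.25, and at a minimum of 5 UMIs for mature cells, at -0.33 and -0.22. Cox6c, for a subunit of cytochrome c oxidase, stood at 511 and 294 CPM against 118 and 65.4 CPM. Interferon-response genes lay the other way. Of 44 type I interferon genes 0 were higher and 30 lower, with a median of -1.94, and of 42 interferon γ genes 0 were higher and 23 lower, with a median of -1.41. Isg15, a ubiquitin-like interferon-response protein chosen after its values were seen, stood at 271 and 404 CPM in the members against 2045 and 3859 CPM in mature neutrophils. All ratios are relative to the total of each stage, and scaling by TMM factors moved the median of all genes from 0.27 to 0.70.

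Monocytes served as another myeloid class. They were 93 barcodes with 3 or more UMIs of F13a1, Csf1r and Ms4a6c, fewer than 3 of the C1q genes and few of the neutrophil genes, so that their own markers follow from the definition. Of 5276 genes, 318 (6.03%) were called higher and 1427 (27.0%) lower in the members than in monocytes of the anti-CD27 and combination libraries. At the floor these were 249 and 1136. Of 23 other secondary granule genes 18 were higher and 0 lower, also at the floor. Lyz2, which both cell types use, stood at 17991 and 19089 CPM in the members and at 14069 and 15225 CPM in monocytes. All 8 MHC class II genes and 9 of 10 monocyte markers were lower, or 7 and 8 at the floor. Ccr2, the chemokine receptor of inflammatory monocytes, had 3 UMIs in the members and stood at 1938 and 2034 CPM in monocytes. Ly6c2 was the marker that was not called, at 2555 and 2059 CPM in the members against 4974 and 5175 CPM. Mitosis genes had 10 of 47 higher and 0 lower, or 6 and 0 at the floor.

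The members were not uniform, and 4 states were described with limits chosen after the values had been seen. In 2 members, 1 each of the anti-CD27 and combination libraries, Mpo, Elane, Prtn3 and Ms4a3 summed to 20 or more UMIs. In 20 further members genes of S phase and mitosis made up 1% or more of UMIs. In 13 members Retnlg had 10 or more UMIs, and 28 members met none of these limits. The rule genes took 0.980% and 3.06% of UMIs in the 2 members rich in primary granule genes. Their median share was 11.9% in the cycling members, 12.8% in the 28 members and 3.98% in those with Retnlg.

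Granule genes differed between the states. Fcnb stood at 4885 CPM in the 2 members with primary granule genes, at 1379 CPM in the cycling members, at 878 CPM in the 28 members and had 0 UMIs in those with Retnlg. Camp was lowest in the first of these states at 5129 CPM, stood at 56049 and 59578 CPM in the next ones and at 20534 CPM in the Retnlg members. Mmp8 was measured at 93.5 CPM in cycling members, 353 CPM in the 28 members and 5213 CPM in the Retnlg members. For Cxcr2 these levels were 70.1, 308 and 1746 CPM, and for Slfn4, an interferon-response gene of myeloid cells, 327, 1938 and 4366 CPM. Mmp8, Cxcr2 and Slfn4 thus lay highest in the members that Retnlg chose, and Fcnb lowest. The cycling state was found in 2, 1, 11 and 6 members of the 4 libraries. All members of the anti-CD27 library with a barcode related to that of another member were among its 11. The Retnlg state was found in 0, 0, 6 and 7 members, where 0 of 5 and 0 of 3 members allow shares of up to 52.2% and 70.8%.

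**Figure D3:**
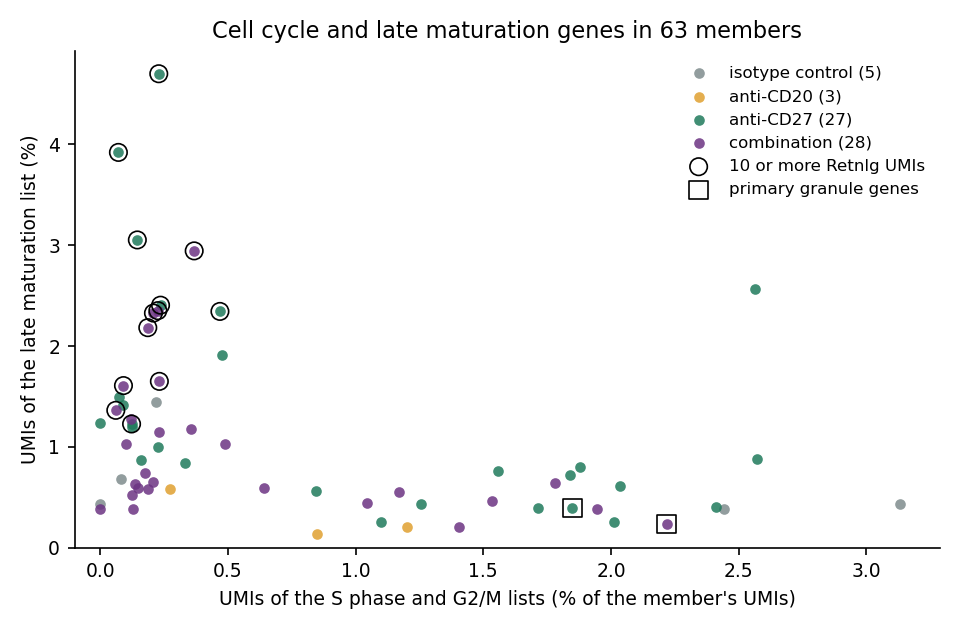
Share of UMIs from S phase and mitosis genes against the share from tertiary granule and late maturation genes, both in percent, with 1 point per member coloured by library, circles around members with 10 or more Retnlg UMIs and squares around those rich in primary granule genes. Across the 63 members Spearman's correlation coefficient between the axes is -0.41, and members high on one axis are mostly low on the other.

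Over the 63 members the shares of several gene groups varied together. Spearman's correlation coefficient between late maturation and type I interferon genes, lists with no gene in common, was 0.61, and it was 0.63 in the 27 members of the anti-CD27 library and 0.59 in the 28 of the combination library. For cell division genes and secondary granule genes the coefficient was -0.58, with -0.60 and -0.57 in these libraries. For the rule genes and late maturation genes it was -0.42. These are descriptions over cells. The points share libraries, each share is a part of the same total, and members differ in depth from 498 to 11236 UMIs.

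The share of immature neutrophils was higher in the libraries with anti-CD27. In control-treated spleens 5 of 340 barcodes were members (1.47%, 0.479 to 3.40), after anti-CD20 3 of 501 (0.599%, 0.124 to 1.74), after anti-CD27 27 of 497 (5.43%, 3.61 to 7.81) and after the combination 28 of 432 (6.48%, 4.35 to 9.23). Intervals are exact Clopper-Pearson intervals. The difference between anti-CD27 and the isotype control was 3.96 percentage points (Newcombe interval 1.41 to 6.46), and that between the combination and anti-CD20 was 5.88 points (3.61 to 8.64). The combination exceeded anti-CD27 by 1.05 points (-2.02 to 4.25), an interval that includes 0. Since B cells are the target of anti-CD20 and their loss raises every other share, barcodes with 2 or more UMIs of B cell markers were also left out of the total. The shares were then 3.52%, 1.10%, 8.60% and 6.51%. Anti-CD27 exceeded the isotype control by 5.08 points (-0.0929 to 9.22), with an interval that then included 0, and the combination exceeded anti-CD20 by 5.41 points (2.55 to 8.25). The combination stood -2.09 points from anti-CD27 (-6.21 to 1.70), so that the order of these libraries turned. More cells of this kind and fewer cells of other kinds cannot be told apart from shares.

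**Figure D4:**
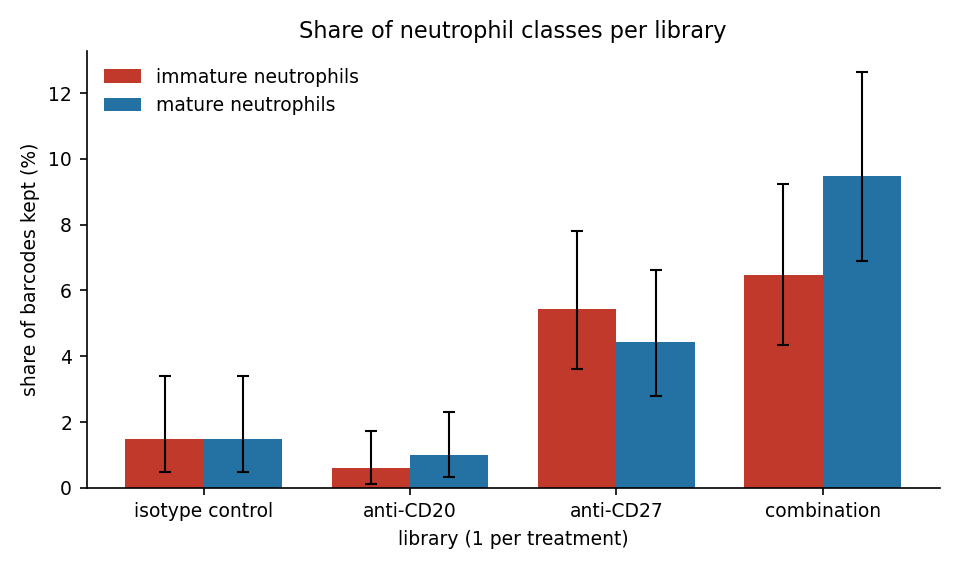
Immature and mature neutrophils in percent of kept barcodes by library, with exact 95% intervals. The immature share is 1.47% and 0.599% without anti-CD27, against 5.43% after anti-CD27 and 6.48% after the combination.

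Mature neutrophils made up 1.47%, 0.998%, 4.43% and 9.49% of the kept barcodes in the same libraries. Of all neutrophils, 50% were immature in the isotype control, 37.5% after anti-CD20, 55.1% after anti-CD27 and 40.6% after the combination. The combination differed from anti-CD27 by -14.5 percentage points (-31.5 to 3.61), an interval that includes 0. It did not include 0 at a rule minimum of 5 UMIs (-18.2, -34.7 to -0.20) or with no lower limit on genes (-17.9, -31.9 to -2.71). With a lower limit of 500 genes, which left 26 mature neutrophils, the last 2 shares were 75.9% and 63.2%.

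Cycling cells were present among the members of every library. Genes of S phase and mitosis took 1% or more of UMIs in 22 of 63 members (34.9%), in 2 of 5, 1 of 3, 12 of 27 and 7 of 28 per library. The same held for 1 of 73 mature neutrophils (1.37%) and 10 of 93 monocytes (10.8%). All members of the anti-CD27 library with a barcode related to that of another member were among its 12. A split cell may therefore be counted more than once. To compare libraries and classes at 1 depth, each barcode was thinned to 400 UMIs and the share with 2 or more UMIs of these genes was taken as its mean over all thinnings. It was 44.6% in the isotype control, 71.6% after anti-CD20, 56.9% after anti-CD27 (36.6 to 75.7) and 40.0% after the combination (22.1 to 60.1). Mature neutrophils gave 26.6%, 39.2%, 25.8% and 22.4%, and monocytes 43.0%, 41.4%, 26.1% and 31.3%. The members lay above both other classes in the anti-CD27 and combination libraries, while the interval of the latter included the values of both. The combination differed from anti-CD27 by -16.9 points (-39.9 to 9.02), which includes 0, and by 7.67 points (-10.2 to 26.1) without thinning. With related barcodes left out, the thinned difference was -11.7 points (-36.0 to 14.5). Without thinning, the shares of members were 80%, 100%, 85.2% and 92.9%, where the median member held 2909 UMIs and the median mature neutrophil 956.

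Immature neutrophils of the combination were then compared with those of anti-CD27 alone, libraries that differed in anti-CD20. With 1 library each, the treatment and the difference between libraries cannot be told apart. Of 2509 genes with 10 or more UMIs, 196 (7.81%) were 2-fold higher and 273 (10.9%) lower after the combination, with a median log2 ratio of -0.09. Of the 22 other secondary granule genes with enough UMIs, 0 were called either way and the median was -0.05, or 0.066 with TMM factors. Lcn2 differed by -0.29 (-0.40 to -0.18), and Fcnb by -0.76 (-1.18 to -0.36). Of 9 primary granule genes 0 were higher and 3 lower, with a median of -0.70. Srgn stood at -1.98 (-2.86 to -1.29). Its level was 4397 CPM in the 2 members rich in primary granule genes and 46.7 CPM in cycling members. Mpo stood at -1.39 (-2.06 to -0.82), where 1 member of the anti-CD27 library held 73 of 78 UMIs. With each member thinned to 400 UMIs the median of the primary granule list was -0.051. The other gene called was Ctsg, for cathepsin G. Of 35 late maturation genes 2 (Mmp25 and Csf2rb) were higher and 7 lower, with a median of -0.17.

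Cell division genes were lower on balance after the combination. Of 37 mitosis genes 2 (Kif20b and Spc25) were higher and 10 lower, with a median of -0.66, and of 19 S phase genes 0 were higher and 7 lower, with a median of -0.52. Lig1, for DNA ligase I, stood at -1.43 (-2.83 to -0.37) and Birc5, for survivin, at -1.29 (-2.62 to -0.26). The number of cycling members was 6 of 28 after the combination and 11 of 27 after anti-CD27. The 11 include every member of the anti-CD27 library whose barcode was related to that of another member. These pairs held 7808 and 3510, 3097 and 3188, and 507 and 498 UMIs. The members of 507 and 498 UMIs were also 1 base from barcodes of 490 and 452 UMIs outside the members. A split cell may thus be counted more than once among the 11. Of 35 type I interferon genes 6 were higher and 1, Oas3, lower (median 0.10), and of 32 interferon γ genes 4 (Irf1, Gbp4, Iigp1 and Socs1) were higher and 0 lower (median -0.06, or 0.055 with TMM factors). The type I median was -0.18 as a mean over cells.

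The single genes with the largest ratios had few UMIs. Ccl5, a chemokine of T and natural killer cells, was higher by 3.67 after the combination (2.42 to 6.36), and 46 of its 59 UMIs in the members lay in 1 barcode. Cd3d, a T cell receptor subunit, was higher by 1.69 (0.75 to 2.95), with 39 UMIs against 10. Apobr, a receptor of apolipoprotein B, was higher by 1.83 (0.68 to 3.55), with 27 UMIs in 13 members against 6 in 5. Gm5483, of the stefin family of protease inhibitors, stood at a log2 ratio of -3.40 (-6.15 to -2.15), with 3 UMIs against 37, of which 18 lay in 1 barcode. Pnn, for a protein of mRNA splicing, stood at -1.93 (-3.31 to -0.96). T cell markers as a list took 61 UMIs (561 CPM) in the combination and 13 UMIs (136 CPM) in the anti-CD27 library, with at most 19 in 1 barcode.

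**Figure D5:**
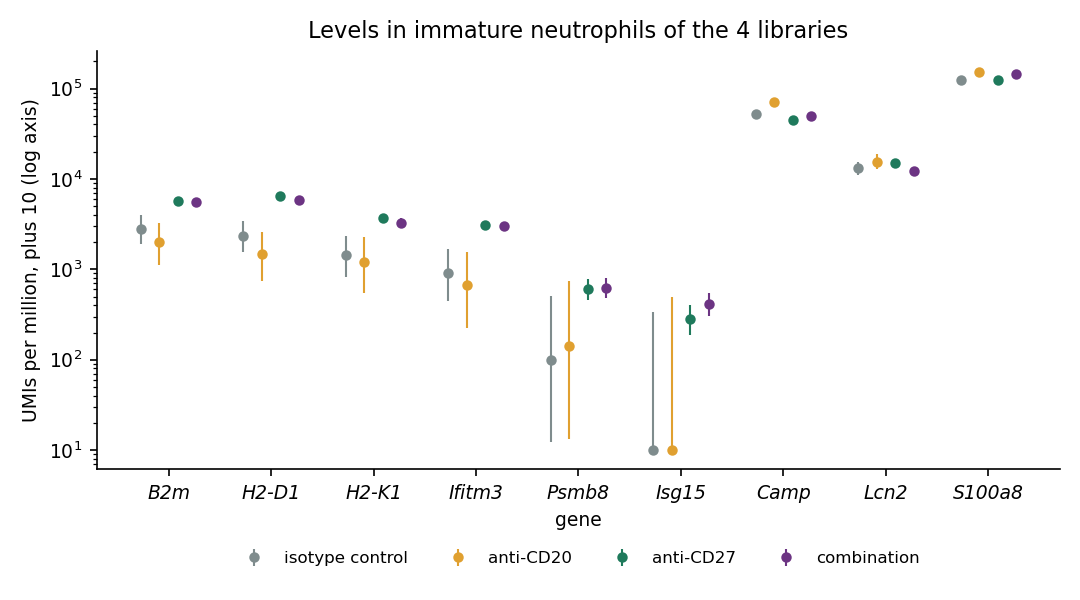
Level in CPM plus 10, on a log axis, of 6 interferon-response genes and of Camp, Lcn2 and S100a8 in the immature neutrophils of each library, with exact Poisson 95% intervals. Ifitm3 lies at 899 and 660 CPM without and at 3056 and 3015 CPM with anti-CD27, while Camp, Lcn2 and S100a8 lie high in all 4 libraries.

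Most of the interferon-response genes tested were higher in the members of both libraries with anti-CD27, several of them against very few UMIs. This comparison set anti-CD27 against the isotype control and the combination against anti-CD20, and was added after the data had been seen. Only genes with 100 or more UMIs in the members were used, since the members of the isotype control and anti-CD20 libraries were 5 and 3. Of 179 such genes, 25 (14.0%) were at least 2-fold higher in both pairs and 0 (0%) lower. The members with anti-CD27 held 95880 and 108807 UMIs and those without 11127 and 7578. Genes thus reached the minimum mostly through the libraries with anti-CD27, and a gene high only without it could rarely enter. The counts of higher and lower genes depend on this choice and are a description. At the floor 21 were higher. Of 8 interferon γ genes 7 were higher (6 at the floor), and of 4 type I interferon genes 3 were higher (3 at the floor). The floor replaced counts of 0 only and left counts of 1 or 2 as they were. Psmb8 and Psmb9, at 1 UMI in each library without anti-CD27, and Psme2, at 2 and 1 UMIs, thus stayed called. Of 18 other secondary granule genes 1, Retnlg, was higher, and of the 3 rule genes 0. The 3 type I genes were Ifitm3, Slfn2 and Slfn4. Counting intervals lay above 0 in both pairs for B2m, H2-D1, H2-K1, Ifitm3 and Slfn4. For Psmb8, Psmb9, Psme2, Gbp7 and Slfn2 the interval included 0 in at least 1 pair. Those not called were Ly6e of the type I genes and H2-T23 of the interferon γ genes. Between anti-CD27 and the isotype control their log2 ratios were 0.092 (-0.66 to 0.94) and 0.0082 (-1.21 to 1.52). Both were higher only in the combination against anti-CD20, where each had 0 UMIs in the 3 members of anti-CD20. The interval of H2-T23 there began at 0.033.

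Ifitm3, for a membrane protein that blocks virus entry, stood at 899 and 660 CPM without anti-CD27, of 10 and 5 UMIs, and at 3056 and 3015 CPM with it. The intervals of the first pair reached 1653 and 1540 CPM and those of the second began at 2716 and 2697 CPM, so that they did not overlap. The class I genes lay the same way. H2-D1 was measured at 2337, 1452, 6539 and 5891 CPM, H2-K1 at 1438, 1188, 3671 and 3281 CPM, and B2m, for the light chain they share, at 2786, 1979, 5705 and 5524 CPM. Psmb8, for a subunit of the immunoproteasome, rested on 1 UMI in each library without anti-CD27 and stood at 594 and 616 CPM with it. Isg15 had 0 UMIs in the first 2 libraries, where 3 counts would be 270 and 396 CPM, and stood at 271 and 404 CPM in the others, so that no difference was detectable.

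Summed over the lists, type I interferon genes took 5033, 3035, 11640 and 12435 CPM in the members of the 4 libraries. Interferon γ genes took 8628, 6070, 23112 and 21800 CPM. In mature neutrophils the latter list took 15613, 18745, 52114 and 56253 CPM. The members of the isotype control and anti-CD20 libraries included none of the Retnlg state, in which interferon-response genes were high. Without the 13 Retnlg members, 145 genes had enough UMIs and 13 were higher in both pairs, of which 12 were among the 25. Of the 13 calls lost, 8 were of genes that no longer had 100 UMIs, such as Psmb9 (mean log2 ratio 2.24 before and 2.25 after) and Psme2 (1.67 and 1.71). With all members, Psmb9 had 1 and 1 UMIs and Psme2 2 and 1 UMIs in the libraries without anti-CD27. Their intervals in the combination against anti-CD20 began at -0.57 and -0.60, so that these ratios are uncertain. The other 5 were tested and not called, namely B2m, Ly6c1, Ly6c2, S100a6 and Slfn4, whose mean log2 ratio went from 2.16 to 1.55. Ifitm3 then stood at 2838 and 2473 CPM with anti-CD27, H2-D1 at 6087 and 5327 CPM, H2-K1 at 3623 and 3103 CPM and B2m at 5484 and 5422 CPM. The ratio of B2m then fell below 2-fold in the anti-CD27 pair. Cd27 had 1 UMI and Ifng 2 UMIs in the members, and both were chosen after their values were seen.

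Markers of other cell types were low in the members. B cell markers took 215 CPM over the 4 libraries, with 8 of 11 genes detected, and 449, 924, 344 and 27.6 CPM by library. T cell markers took 354 CPM with 10 of 12 detected, macrophage markers 125 CPM with 5 of 10 detected and C1qa at 0 UMIs, and natural killer cell markers 143 CPM with 3 of 10 detected. Erythroid markers took 1797, 3299, 1158 and 1130 CPM by library. Monocyte markers took 629, 924, 2607 and 2132 CPM by library, of which Ly6c2 made up 482 of 496 UMIs in all. The B cell and erythroid markers were thus lower, and Ly6c2 higher, in the libraries where interferon-response genes were higher. As an alternative, members with 5 or more UMIs of B cell, T cell or erythroid markers, haemoglobin genes aside, were left out. Then 136 genes had enough UMIs, and 17 of the 25 genes called with all members were still called. The part of haemoglobin genes and of Ly6c2 in the difference was not tested.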

How the data were processed

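Splenocytes of 4 BALB/c mouse groups with BCL1 lymphoma were profiled by Drop-seq. The authors deposited raw UMI counts in 1 table of 17252 genes and 3198 barcodes with no normalization. STAR 2.5.0a, bcl2fastq and the mm10 build are named in the submitters' processing notes, and the gene annotation used for counting was not given in the sources used here. Barcodes were assigned to libraries by prefix, and the prefix PBS was taken as the isotype control. Columns of other samples numbered 0. Names of genes are those of the table.

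Barcodes with 300 to 3000 genes (1770) were kept. The members, gene lists and tests were chosen with earlier results of these data known. UMIs were summed per class and library and scaled to CPM, with log2(CPM + 10) ratios and a 2-fold threshold. Totals per library of members were 7578 to 108807 UMIs, so that 3 counts, the floor used for counts of 0, equal 27.6 to 396 CPM. Reads of near-identical genes such as Slfn, Ifitm, Ly6c and H2 family members may be split between copies. With 1 library per treatment no p-value was computed. Intervals at 95% were Clopper-Pearson for shares, Newcombe for their differences, exact Poisson for levels and exact conditional for ratios. Thinned shares were exact means over all thinnings to 400 UMIs (hypergeometric), and their intervals treat that mean as a count. The text names the rule genes and markers, up to 4 genes of each list with most UMIs, the 15 highest and 10 lowest immature to mature ratios and the 10 highest and 10 lowest ratios of the combination to anti-CD27, among genes with 30 or more UMIs. Others are said to be chosen after their values were seen or complete a count of 5 or fewer. No doublet caller was run. Members with 5 or more UMIs of B cell, T cell or erythroid markers, haemoglobin genes aside, were left out as an alternative. Other alternatives changed the limits, scaling (TMM from edgeR), pseudocount, filters and depth. The comparisons of classes and of the combination with anti-CD27 were also run on simulated counts. These were drawn from a shared profile without variation between cells, so that UMIs gathered in few members were not covered. Python 3.11.15, numpy 2.4.6, scipy 1.17.1, pandas 2.3.3, matplotlib 3.10.9, R 4.3.3 and edgeR 4.0.16 were used.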

Additional observations from a re-analysis of the deposited data

Results flagged for a closer look

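Barcodes with fewer than 300 detected genes, which entered only an alternative with no lower limit on genes, also held 10 or more UMIs of Camp, Ngp and Ltf more often in the libraries with anti-CD27. This was the case for 13 of 288 such barcodes after anti-CD27 (4.51%, 2.43 to 7.60) and for 18 of 338 after the combination (5.33%, 3.19 to 8.29), against 3 of 457 in the isotype control (0.656%) and 4 of 294 after anti-CD20 (1.36%). The 38 barcodes had a median of 173 genes and 351 UMIs, and the rule genes took a median of 10.7% of their UMIs. With these barcodes the members would number 8, 7, 40 and 46. Some of them had a barcode that differed by 1 base from that of a member or lacked 1 base. These held 213, 281 and 288 genes after anti-CD27 and 97 and 172 genes after the combination. A split cell may thus be counted more than once in the libraries with anti-CD27.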

How the results depend on the processing

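No paired analysis was possible because each treatment had 1 library. Without B cell barcodes the member share was 3.52% for the isotype antibody and 8.60% after anti-CD27, and the combination stood -2.09 points from anti-CD27. With 500 or more genes, 75.9% of neutrophils after anti-CD27 and 63.2% after the combination were immature, and the S phase and respiratory chain medians were 2.94 and 2.30. Unthinned, 100%, 85.2% and 92.9% of members after anti-CD20, anti-CD27 and the combination had 2 cycle UMIs, and 65.0% of the combination had 1 when thinned. Genes higher in immature than mature neutrophils (588) numbered 204 with no upper limit on genes, 289 at a pseudocount of 50, 187 and 1308 at 30 and 1 UMIs per gene, 69 when thinned and 284 at a mature minimum of 5. Lower genes (500) numbered 1003 with no upper limit, 309 with TMM, where 813 were higher, 266 at 30 UMIs and 190 when thinned. With totals that left out 5 abundant genes, 768 were higher and 366 lower. Genes higher after the combination (196) numbered 623 with no upper limit, 57 at a pseudocount of 50, 17 and 956 at 30 and 1 UMIs and 18 when thinned, and lower genes (273) 78 at a pseudocount of 50, 27 and 2260 at 30 and 1 UMIs and 23 when thinned. The primary granule median (3.64) was 1.11 with no upper limit, 4.33 without mixed members, 1.93 without the 2 members rich in these genes, 4.24 with totals that left out 5 genes, 2.99 as a mean over cells, 1.78 at a pseudocount of 50, 5.02 and 1.77 at 30 and 1 UMIs, 1.17 when thinned and 2.14 at a mature minimum of 5. With no upper limit, which added 8 deep barcodes to the mature class, medians were 3.34 for other secondary granule, -1.25 for late maturation, 1.08 for NADPH oxidase, -0.15 for Fc receptor, -0.73 for trafficking, -0.93 for type I interferon and -0.71 for interferon γ genes, and turned to -0.71 for S phase, -0.26 for mitosis, -1.25 for secretory and -0.78 for respiratory chain genes, as did Ube2c (-0.30) and Tubb5 (-1.18). When thinned, they were -3.05 for late maturation, 0.41 for mitosis, -1.97 for Fc receptors, -1.73 for transcription factors, -2.23 for trafficking and, between the combination and anti-CD27, -0.051 for primary granule and -1.48 for mitosis genes, and Vps4b (-0.050) and Rac1 (0.91) turned. A pseudocount of 50 gave 0.99 for S phase and 1.27 for mitosis. A mature minimum of 5 gave 0.76 for S phase and 1.79 for mitosis and turned secretory (-0.22) and respiratory chain (-0.33) medians. At 30 UMIs the S phase median of the combination against anti-CD27 was -1.30. Without the Retnlg members 13 of 145 genes, not 25 of 179, were higher with anti-CD27, and 8 of the 13 calls lost were of genes no longer tested. Beyond depth and class size, which these settings change by construction, the cause was not tested. The other 483 values of this kind stayed within the counting interval or a set distance of the reported value, but 14 of them had the other sign, 9 list medians between the combination and anti-CD27 and 5 differences between libraries whose intervals included 0. Some of these differences concerned the share of members with 2 or more cycle UMIs. They were 7.67 points for the combination against anti-CD27 (-16.9) unthinned and -3.96 for anti-CD27 against isotype (12.3) without related barcodes. In the immature share of neutrophils, they were -11.8 at 500 genes and -0.58 without mixed members for the combination against anti-CD20 (3.08), and -1.79 at a mature minimum of 5 for anti-CD27 against isotype (5.10). The median of all genes, immature against mature (0.27), was -0.56 with no upper limit, -0.33 at a mature minimum of 5, -0.63 when thinned and -0.11 at 30 UMIs. The settings on related barcodes, on the lower gene limit, on primary granule members and on Retnlg members, and all settings of the comparison with and without anti-CD27, were chosen after seeing the data. Depth limits the isotype control and anti-CD20 values most, with 11127 and 7578 UMIs in members.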
